A study of Mus musculus with 2 samples.

Results

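The 4 Hox gene clusters of the mouse were examined as 550 windows of 1 kb, of 2581838 such windows between the first and last listed tag of each chromosome. The windows were chosen by position alone, on build mm9. HoxA was taken as chr6:52100000-52225000 (125 windows), HoxB as chr11:96050000-96235000 (185 windows), HoxC as chr15:102750000-102870000 (120 windows) and HoxD as chr2:74490000-74610000 (120 windows). Brg1, the ATPase of the Swi/Snf nucleosome remodelling complex, had been immunoprecipitated from primary embryonic fibroblasts of wild-type mouse embryos at E13.5, of mixed C57BL/6 and 129 background. Nuclear chromatin was cut with micrococcal nuclease, an enzyme that digests DNA between nucleosomes, and sonicated briefly. The series has 1 library from this precipitation (ChIP) and 1 from chromatin without antibody (input), both from the same kind of wild-type cell. The sources used here do not give the number of embryos or the part of the body that the cells came from, and DNA libraries hold no marker expression against which to check the fibroblast label.

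Hox genes encode homeodomain transcription factors that set the identity of positions along the body axis and the limb. Their genes lie in clusters in the order of their paralogue groups, and genes of low group number act further forward and earlier than genes of high group number. Cells of a given body region keep a matching stretch of each cluster active while Polycomb complexes hold the rest silent, and fibroblasts in culture largely retain this pattern. Swi/Snf entered this field through the fly gene brahma, a relative of Brg1, which was found as a suppressor of Polycomb mutations and is needed to keep Hox genes active.

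By the order of genes in the RefSeq table (assembly GRCm38.p6), the clusters hold 39 Hox genes. HoxA has 11, up to Hoxa13, HoxB has 10, from Hoxb1 to Hoxb13, HoxC has 9, from Hoxc4 to Hoxc13, and HoxD has 9, from Hoxd1 to Hoxd13. The low-numbered gene lies at low coordinates in HoxA and at high coordinates in HoxB, HoxC and HoxD, and distances along HoxB, HoxC and HoxD are given from the low-numbered end and along HoxA from the low coordinate. No annotation of mm9 was used, so that tags are placed in stretches of a cluster and not on single genes. The regions measured can reach past the outermost Hox genes of a cluster, and genes beyond those were not looked up. Between their outermost Hox genes the clusters hold no other protein-coding gene. They hold long noncoding RNAs such as Hotairm1 in HoxA, Hotair in HoxC and Haglr in HoxD, microRNAs of the miR-10 and miR-196 families, and miR-615 in HoxC. Those of the miR-10 and miR-196 families are shown because they are copies at matching places of clusters that arose by duplication, with the seed (bases 2 to 8) in capitals. Members of 1 family share their seed across clusters, and miR-196a-5p has the same mature sequence in HoxB and HoxC.
mmu-miR-10a-5p (HoxB): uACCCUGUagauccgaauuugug
mmu-miR-10b-5p (HoxD): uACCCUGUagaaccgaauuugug
mmu-miR-196a-5p (HoxB and HoxC): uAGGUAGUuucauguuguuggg
mmu-miR-196b-5p (HoxA): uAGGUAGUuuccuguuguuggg

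Many promoters of the clusters hold CG dinucleotides in number, the letters at which vertebrate DNA is methylated. RefSeq promoter sequences of 300 bases, from 250 before to 50 after the start, were at hand for 24 starts of 22 Hox genes, 10 starts each in HoxA and HoxD, 3 in HoxB and 1 in HoxC. They held 4 to 45 CG with a median of 14.5, against a median of 7 in all 32851 promoters of the table, and CG reads the same on both strands. At least 15 were found in 12 of 24, 6 of 10 in HoxA, 6 of 10 in HoxD and 0 in HoxB and HoxC, against 34.6% of all promoters. At least 1 CG was present in 24 of 24 Hox promoters and in 94.6% of all promoters. The promoters of Hoxd1 and Hoxd13 are printed because these genes mark the ends of the cluster in which the ChIP/input ratio differed most between ends. CG is in capitals, and there are 29 in Hoxd1 and 37 in Hoxd13, both well above the median of the 24. Their coordinates are those of GRCm38.p6, plus strand, chr2:74762730-74763029 for Hoxd1 and chr2:74667975-74668274 for Hoxd13. They cannot be set beside the mm9 positions of tags.
Hoxd1 promoter: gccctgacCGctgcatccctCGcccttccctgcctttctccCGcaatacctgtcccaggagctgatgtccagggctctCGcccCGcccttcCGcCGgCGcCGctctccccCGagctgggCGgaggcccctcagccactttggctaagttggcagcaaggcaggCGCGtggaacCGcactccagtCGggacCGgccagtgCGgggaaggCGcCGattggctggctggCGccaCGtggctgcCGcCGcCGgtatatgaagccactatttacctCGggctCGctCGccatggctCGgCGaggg
Hoxd13 promoter: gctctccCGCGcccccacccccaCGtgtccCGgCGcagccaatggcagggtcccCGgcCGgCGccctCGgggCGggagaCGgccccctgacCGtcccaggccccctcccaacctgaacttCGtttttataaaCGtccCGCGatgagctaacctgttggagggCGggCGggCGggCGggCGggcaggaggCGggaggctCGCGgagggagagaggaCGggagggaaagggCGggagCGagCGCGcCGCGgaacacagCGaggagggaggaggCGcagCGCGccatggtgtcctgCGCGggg

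The ChIP library held 13581267 tags and the input 5778620, and each cluster was read as the ratio of its ChIP to its input tags, divided by the same ratio over the 19 autosomes (2.36). A ratio of 1 is the autosomal level. Intervals are exact 95% intervals (Clopper-Pearson) and cover counting error only. All tests compare the tags of these 2 libraries, not replicated conditions, and tags along a chromosome vary by more than counting error, so the tests of a cluster, its flanks and its ends are set beside the share of autosomal tiles of the same length that passed them. No such share was computed for the pairs of clusters.

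HoxA and HoxD carried the most Brg1 signal, HoxC less, and HoxB little more than the autosomes. HoxA, whose genes pattern limb and trunk, held 1990 ChIP tags and 456 input tags, at a ratio of 1.85 (1.67 to 2.05, exact binomial test, adjusted p = 1.54e-33). HoxD, which together with HoxA patterns the limbs, held 1369 and 331, at a ratio of 1.76 (1.56 to 1.99, by exact test adjusted p = 5.30e-20). HoxC held 1274 and 387, at a ratio of 1.40 (1.25 to 1.57, by exact test adjusted p = 6.44e-08). HoxB held 1590 and 597, at a ratio of 1.13 (1.03 to 1.24, by exact test adjusted p = 0.0199). All 4 passed the test in the higher direction, which 19.7% of tiles of 125 kb, 22% of tiles of 185 kb and 19.2% of tiles of 120 kb also did. In the lower direction 34.8%, 39.1% and 34.2% passed. A pass is thus common among such regions, and the rank of a cluster says more. HoxA was exceeded or equalled by 46 of 18915 tiles, HoxD by 102 of 19697, HoxC by 984 of 19697 and HoxB by 2702 of 12786.

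**Figure D1:**
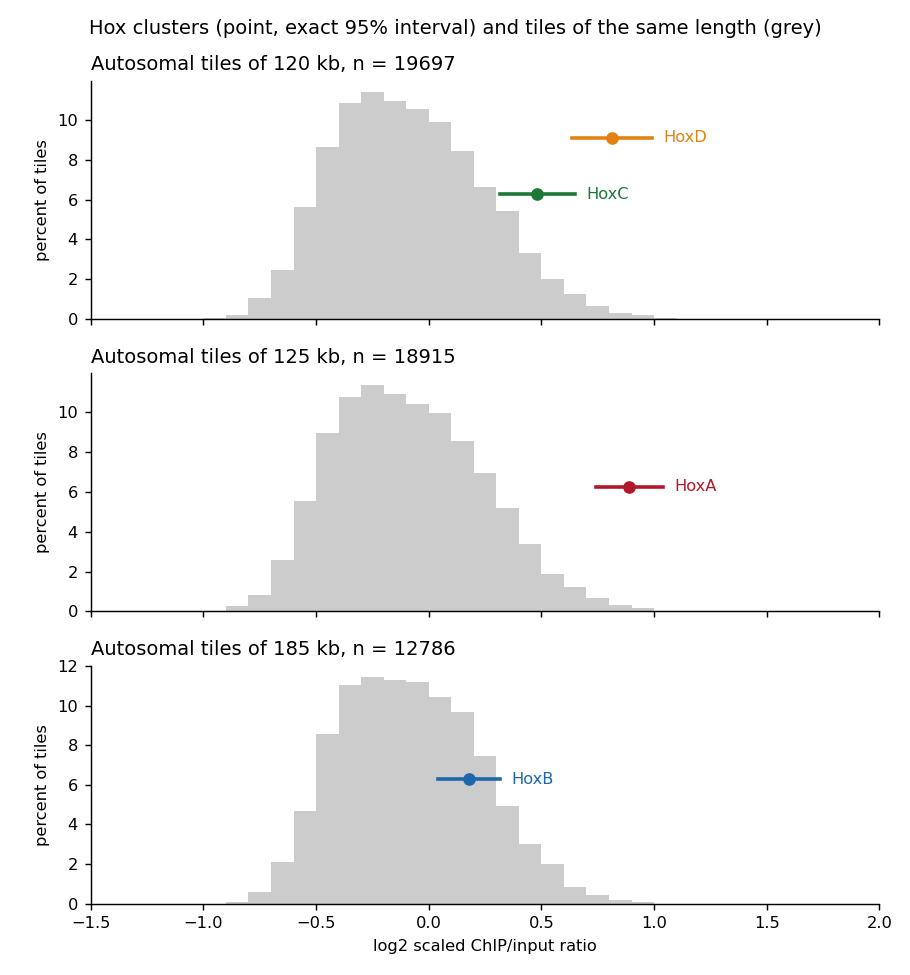
Log2 scaled ChIP/input ratio of the 4 clusters (points, with exact 95% intervals) against the percent of autosomal tiles of the same length at each ratio (grey bars). HoxA and HoxD lie at the upper edge of the tiles, HoxC on their upper slope and HoxB among them; heights of the points have no meaning.

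The call of HoxB was not stable. It was lost when the ratio was scaled to chromosome 11, which as a whole stood at 1.04 (ratio 1.09, exact test, adjusted p = 0.104), and when its 5 windows with the most ChIP tags were left out (1.09, exact test, adjusted p = 0.118). A scale taken from windows with few tags raised all ratios by 0.37 on the log2 scale, so that HoxA stood at 2.39, HoxD at 2.26, HoxC at 1.80 and HoxB at 1.46. Under it 52.7% of the 125 kb tiles were called higher and 2.29% lower, against 19.7% and 34.8% before. The same factor applies to every cluster, so their order could not move.

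Input tags were also dense in the clusters, at 1.57 times the autosomal mean per kb in HoxA, 1.39 times in HoxB, 1.39 times in HoxC and 1.19 times in HoxD. ChIP tags stood at 2.91, 1.57, 1.94 and 2.09 times. Tiles with dense input had higher ratios than tiles in general, whose median was 0.925 to 0.934 at these lengths. Among the 145 tiles with at least the input of HoxA the median ratio was 1.21, and 7 reached that of HoxA. The corresponding numbers were 1.11 and 78 of 5756 for HoxD, 1.19 and 313 of 1581 for HoxC, and 1.20 and 560 of 880 for HoxB. The part of local tag density in the ratios was not tested.

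The next question was whether the signal belonged to the clusters or to a wider neighbourhood. Flanks of the same length as the cluster, on both sides together, were near the autosomal level in all 4 cases. HoxA exceeded its flanks 1.96-fold (1.71 to 2.24), with a flank ratio of 0.947 from 1575 ChIP and 706 input tags (Fisher's exact test, adjusted p = 1.96e-19). HoxD exceeded its flanks 1.81-fold (1.55 to 2.13), with a flank ratio of 0.967 from 1290 and 566 tags (exact test, adjusted p = 1.46e-11). HoxC exceeded its flanks 1.46-fold (1.26 to 1.70), with a flank ratio of 0.954 from 1553 and 691 tags (exact test, adjusted p = 9.89e-06). These 3 clusters passed in a direction in which 9.97% of 125 kb tiles and 9.14% of 120 kb tiles passed, while 11.2% and 10.2% passed in the lower direction. Only 9 of 18895 tiles exceeded their flanks by as much as HoxA, 19 of 19678 by as much as HoxD and 330 of 19678 by as much as HoxC.

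HoxB did not pass this test. Its ratio was 1.07 times that of its flanks (0.946 to 1.20, by exact test adjusted p = 0.472), where 13.2% of 185 kb tiles were called higher and 15.3% lower, and the interval leaves room for a difference of up to 1.20-fold. The flank beyond the Hoxb13 end was itself above the autosomal level at 1.18 (1.07 to 1.31), and the flank beyond the Hoxb1 end stood at 0.919 (0.824 to 1.03). With the edges moved in by 5 kb HoxB did pass, at 1.17-fold (exact test, adjusted p = 0.0435). For HoxC the result depended on how far the flanks reached. With flanks of 500 kb, whose ratio was 1.28, HoxC was 1.09 times its surroundings (0.969 to 1.24, by exact test adjusted p = 0.274), whereas HoxA stayed at 1.83-fold and HoxD at 1.83-fold.

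With the edges pooled the rise fell close to the given edges, but not every edge showed it. In steps of 10 kb, with all 8 edges pooled, the ratio was 0.974 (0.827 to 1.15) in the last step outside. In the first step inside it was 1.28 (1.11 to 1.47), and the intervals of these steps overlap. The highest pooled step inside was that at 30 to 40 kb, at 1.79 (1.55 to 2.08), and the next, at 40 to 50 kb, stood at 1.36 (1.19 to 1.57). Far outside, at 180 to 190 kb, the pooled ratio was also high, at 1.48 (1.27 to 1.74). At the Hoxa13 edge, 61 ChIP and 24 input tags outside (ratio 1.08, 0.663 to 1.81) were followed by 116 and 38 in the first step inside (1.30, 0.891 to 1.92) and 185 and 36 in the next (2.18, 1.52 to 3.21). At the Hoxd13 edge the step was from 74 and 26 tags (1.21, 0.763 to 1.97) to 154 and 34 (1.92, 1.32 to 2.88). The intervals of these neighbouring steps overlap at both edges. At the Hoxd1 edge there was no rise, with 57 and 22 tags outside (1.10, 0.662 to 1.89) and 63 and 36 inside (0.743, 0.486 to 1.15). At the Hoxb1 edge the ratio was 0.829 (0.485 to 1.46) outside and 0.691 (0.446 to 1.08) inside, and at the Hoxb13 edge it was 0.650 (0.408 to 1.05) outside and 1.04 (0.687 to 1.59) inside. The first 10 kb of HoxB was thus not above the autosomal level beyond counting error at either end. At the Hoxc13 edge the ratio was 1.41 (0.887 to 2.33) outside and 1.57 (0.993 to 2.58) inside. At the Hoxc4 edge it was 0.824 (0.537 to 1.29) outside and 1.26 (0.842 to 1.93) inside.

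**Figure D2:**
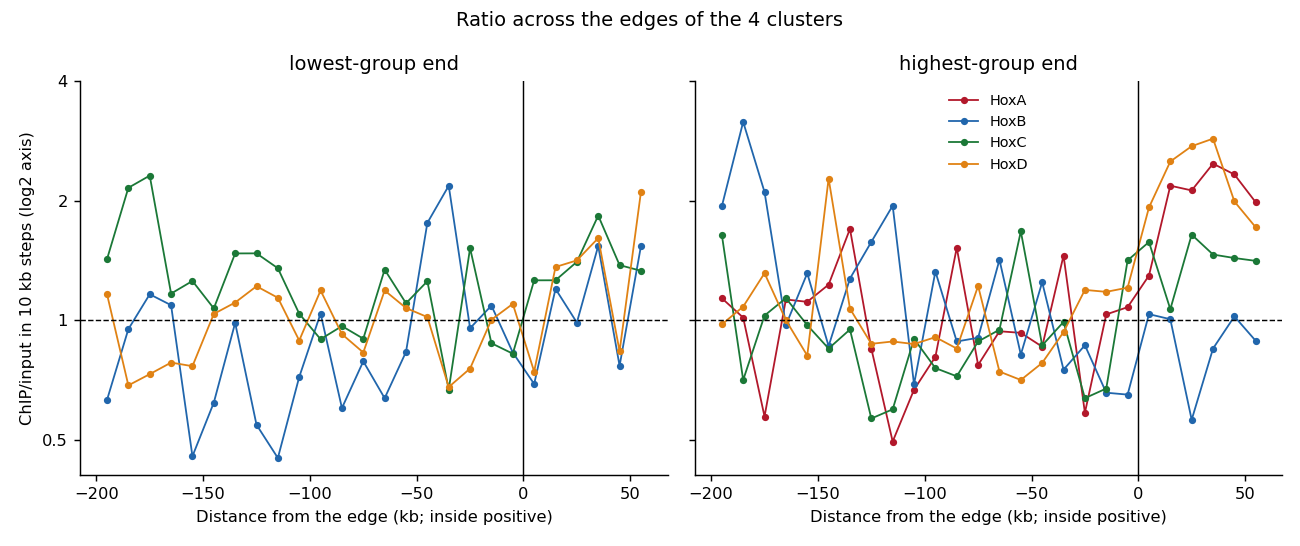
Scaled ChIP/input ratio (log2 axis) in steps of 10 kb from 200 kb outside to 60 kb inside each edge, for the end with the low-numbered genes (left) and the end with the high-numbered genes (right). Lines are the clusters, without error bars, with HoxA on the right only; HoxA reaches 2.18 in the second step inside the Hoxa13 edge, HoxD goes from 1.21 to 1.92 at the Hoxd13 edge, and HoxB reaches 3.16 far outside its Hoxb13 end.

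Between clusters, 5 of the 6 pairs passed the test of a difference (Fisher's exact test, adjusted over the 6 pairs), which counts tag sampling as its only error. The ratio of HoxA was 1.64 times that of HoxB (1.42 to 1.89, exact test, p = 2.52e-12, adjusted p = 1.51e-11) and 1.33 times that of HoxC (1.13 to 1.55, exact test, p = 0.000338, adjusted p = 0.000675). HoxB was at 0.644 times HoxD (0.551 to 0.752, exact test, p = 1.22e-08, adjusted p = 3.66e-08) and at 0.809 times HoxC (0.696 to 0.940, exact test, p = 0.00514, adjusted p = 0.00771). HoxC was at 0.796 times HoxD (0.672 to 0.942, exact test, p = 0.00707, adjusted p = 0.00848). HoxA and HoxD could not be told apart, at 1.06-fold (0.898 to 1.24, exact test, p = 0.520, adjusted p = 0.520), a range that still allows HoxA to be up to 1.24 times HoxD. The place of HoxC was the least firm. From minus-strand tags alone HoxA was 1.06 times HoxC and HoxC 0.915 times HoxD (exact test, adjusted p = 0.700 for both), and from plus-strand tags alone HoxB was 0.870 times HoxC (exact test, adjusted p = 0.221). For scale, the log2 ratios of single autosomal tiles had an SD of 0.327 at 120 kb and 0.306 at 185 kb. Differences between 2 independent tiles spread more widely than this, so a difference above the SD can still be usual. The log2 difference was below the SD of 120 kb tiles for HoxA and HoxD (0.08) and for HoxB and HoxC (0.31). It was about equal to it for HoxC and HoxD (0.33). Above it were HoxA and HoxC (0.41), HoxB and HoxD (0.63) and HoxA and HoxB (0.71). How often pairs of tiles pass the same test was not computed, and the smaller of these differences lie within the usual spread between regions of this length.

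Along the clusters, signal in HoxD was concentrated toward the Hoxd13 end, while the 3 segments of HoxA, and those of HoxC, had ratios with overlapping intervals. Each cluster was divided into 3 segments, the 2 outer ones equal in length. In HoxD the 40 kb at the Hoxd13 end, the side of the genes used in the digits and distal limb, held 620 ChIP and 107 input tags, at a ratio of 2.46 (2.00 to 3.05). The middle 40 kb held 419 and 111 (1.60, 1.30 to 1.99), and the 40 kb at the Hoxd1 end held 330 and 113 (1.24, 0.998 to 1.55). Input was nearly even over the 3 segments, so the slope lay in the ChIP tags. The Hoxd1 end was at 0.504 times the Hoxd13 end (0.371 to 0.686, Fisher's exact test, adjusted p = 0.000373), a difference between ends that 11.4% of 120 kb tiles also showed in either direction, and 592 of 19697 tiles differed by as much. It was 0.391 on minus-strand tags alone and 0.643 on plus-strand tags alone, where it no longer passed (exact test, adjusted p = 0.287).

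HoxA showed no difference between its ends that passed the test. The 41 kb farthest from Hoxa13 held 590 ChIP and 137 input tags (1.83, 1.52 to 2.22), the middle 43 kb 690 and 171 (1.71, 1.45 to 2.04) and the 41 kb at the Hoxa13 end 710 and 148 (2.04, 1.70 to 2.45). The far end was at 0.898 times the Hoxa13 end (0.689 to 1.17, by exact test adjusted p = 0.718), with 11.4% of 125 kb tiles called. Split in the middle, HoxA stood at 1.62 toward low coordinates and 2.07 toward Hoxa13, a quotient of 0.784 (0.635 to 0.968, exact test, p = 0.0207), which did not pass after adjustment either (adjusted p = 0.117). HoxC stood at 1.42 (1.17 to 1.74) in the 40 kb at the Hoxc4 end, 1.39 (1.14 to 1.69) in the middle and 1.38 (1.12 to 1.71) at the Hoxc13 end, and its ends differed 1.03-fold (0.766 to 1.38, by exact test adjusted p = 0.980). In simulated tiles of 125 kb the test of the ends found 24% of 1.5-fold and 74% of 2-fold differences. Few tiles were raised there, with tag rates from all tiles, so these shares do not measure what was missed in the clusters. Ends that did not pass may still differ. Whether the slope of HoxD differs from that of HoxA was not tested.

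In HoxB the middle segment had the highest ratio of the 3, a difference that was not tested and that a split in the middle, with 1.13 toward Hoxb1 and 1.14 toward Hoxb13, does not show. The central 63 kb held 722 ChIP and 227 input tags, at a ratio of 1.35 (1.16 to 1.57). The 61 kb at the Hoxb13 end, the side of the long gap that sets Hoxb13 apart from the other genes of its cluster, held 348 and 165 (0.895, 0.742 to 1.08), and the 61 kb at the Hoxb1 end held 520 and 205 (1.08, 0.914 to 1.27). The 2 ends differed 1.20-fold (0.933 to 1.55, by exact test adjusted p = 0.357), with 17.4% of 185 kb tiles called. The interval of the central stretch overlaps that of the Hoxb1 end.

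**Figure D3:**
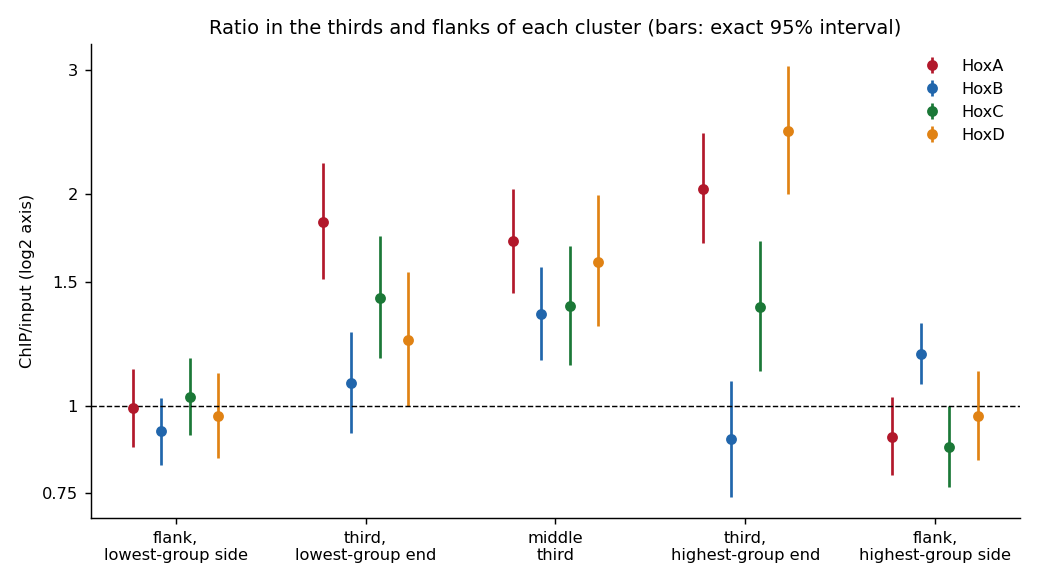
Scaled ChIP/input ratio (log2 axis) in the 3 segments of each cluster and in the flank of 1 cluster length on each side, with exact 95% intervals. HoxD climbs from 1.24 at the Hoxd1 end to 2.46 at the Hoxd13 end, HoxA stays between 1.71 and 2.04, HoxC near 1.4, and HoxB is highest in its middle at 1.35.

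Windows of 5 kb gave the same picture at finer grain. Tests ran over 482514 windows of the genome, and a window was called where its ratio reached 1.5, or its inverse, with an adjusted p under 0.05. Of the 110 windows of the clusters 14 were called higher, against 2.25% of all tested windows, and 0 were called lower, against 0.406%. HoxA had 8 of 25, HoxD 5 of 24, HoxB 1 of 37 and HoxC 0 of 24. At an unadjusted p under 0.05 by the exact binomial test, 18 windows of HoxA, 13 of HoxD, 5 of HoxC and 1 of HoxB were higher and 1 of HoxB was lower, against 6.37% higher and 6.33% lower of all tested windows. At double the smaller tail, another form of the exact test, 12 of the 14 were called. The median ratio was 1.91 in HoxA, 1.77 in HoxD, 1.45 in HoxC and 1.05 in HoxB, against 0.905 over the other tested autosomal windows. Ratios above 1 were found in 23 of 25 windows of HoxA, 22 of 24 of HoxC, 19 of 24 of HoxD and 22 of 37 of HoxB, against 41.5% elsewhere. With the scale from windows with few tags 37 of the 110 were called, and the genome-wide counts went from 10857 higher and 1959 lower to 27687 and 491.

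In HoxA 5 called windows lay side by side, together chr6:52170000-52194999, with 86 to 98 ChIP tags and 15 to 19 input tags each and ratios of 2.19 to 2.52. A further window in the same part of the cluster, chr6:52200000-52204999, held 109 ChIP and 15 input tags, at a ratio of 3.08 (1.79 to 5.70, by exact test adjusted p = 0.000687). In the other part, chr6:52125000-52129999 held 80 ChIP and 11 input tags, the highest ratio of the cluster at 3.09 (1.64 to 6.43, by exact test adjusted p = 0.00885). The lowest was at chr6:52145000-52149999, with 52 and 25 tags (0.883, 0.538 to 1.48). The 4 windows between this dip and the run of called windows had ratios of 1.27 to 1.81.

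In HoxD 4 of the 5 called windows lay in the 60 kb toward Hoxd13, and the fifth lay just on the Hoxd1 side of the middle, at 55 to 60 kb from the Hoxd1 end. The highest was chr2:74515000-74519999, with 77 ChIP and 8 input tags, at a ratio of 4.08 (1.97 to 9.80, by exact test adjusted p = 0.00109). Next to it chr2:74520000-74524999 held 87 and 16 (2.31, 1.34 to 4.21, by exact test adjusted p = 0.0442) and chr2:74525000-74529999 held 75 and 8 (3.98, 1.92 to 9.55, by exact test adjusted p = 0.00200). The remaining pair were chr2:74505000-74509999 with 72 and 10 (3.06, 1.57 to 6.64, by exact test adjusted p = 0.0151) and chr2:74550000-74554999 with 83 and 10 (3.52, 1.82 to 7.62, by exact test adjusted p = 0.00214). Behind the last of these the ratio was lower, a drop that was noticed in the values and not tested. The intervals of the windows on its 2 sides overlap. The next window toward Hoxd1, chr2:74555000-74559999, held 26 ChIP and 12 input tags, at a ratio of 0.919 (0.448 to 2.00), and ratios from there to the Hoxd1 end ranged from 0.613, in the outermost window, to 1.99.

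In HoxB the only called window was chr11:96115000-96119999, whose 54 ChIP and 4 input tags gave a ratio of 5.73 (2.11 to 21.8, by exact test adjusted p = 0.00348). Its neighbours held 47 and 75 ChIP tags with 14 and 22 input tags, so that the window stood out by its low input count and not by its ChIP count. Where no input count was allowed below the mean of the 50 kb around it, the ratio was 1.53 and the call was lost (exact test, adjusted p = 0.554). The lowest ratio of all 110 windows, 0.546 (0.297 to 1.02), was at chr11:96075000-96079999 in the part toward Hoxb13. In HoxC ratios ran from 0.768 (0.439 to 1.38) at chr15:102850000-102854999 to 2.16 (1.09 to 4.78, by exact test adjusted p = 0.273) at chr15:102770000-102774999. The same rule on the input gave 5 calls in the clusters, 3 in HoxA and 2 in HoxD. With 1 tag per strand kept within 5 bp there were 8, and the run of 5 windows in HoxA fell just short (exact test, adjusted p = 0.0553 to 0.0779). The share of all tested windows called under these settings is not given.

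**Figure D4:**
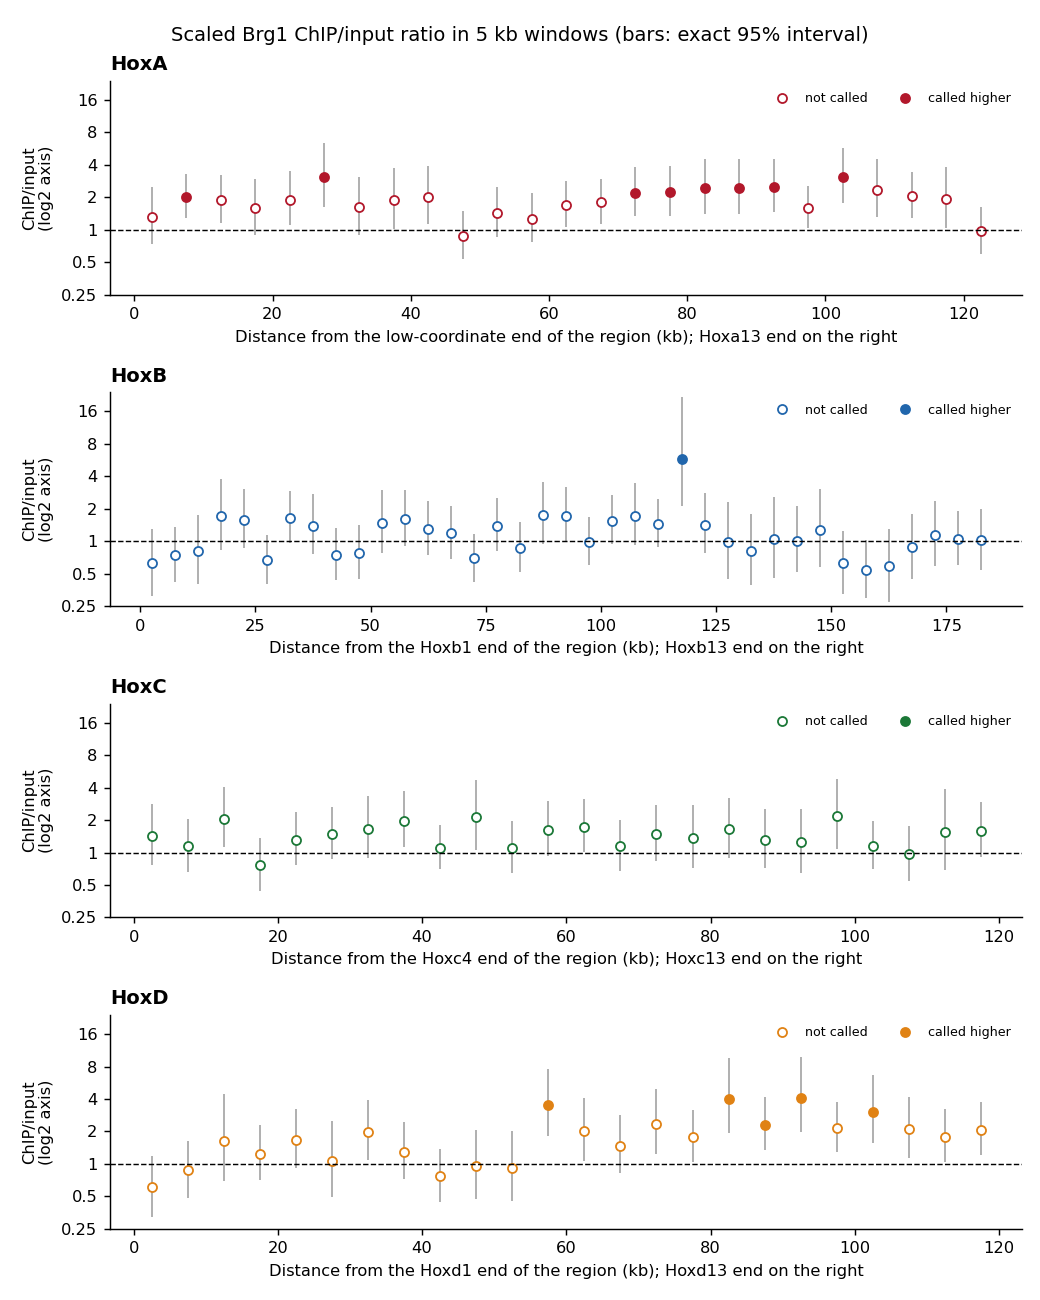
Scaled ChIP/input ratio (log2 axis) in 5 kb windows along each cluster, by distance from its low-numbered end (HoxA: low coordinate), with exact 95% intervals. Filled points are the 14 called windows, 8 in HoxA, 5 in HoxD, 1 in HoxB and 0 in HoxC; the HoxD points drop behind the window at 57.5 kb when read toward Hoxd1.

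At 1 kb no member window was called. Of the 550 windows 430 held the 10 tags needed for a test, and 0 passed the exact binomial test after adjustment, against 0.473% called higher and 0.0251% lower of the 706215 windows tested in the genome. The smallest adjusted p was 0.0534, in HoxA. At an unadjusted p under 0.05, 54 of 430 were higher (12.6%, against 6.72% of all tested windows) and 1 was lower, and the form of the test that doubles the smaller tail also called 0. By cluster, 24 of 120 were higher in HoxA, 16 of 86 in HoxD, 9 of 100 in HoxC and 5 of 124 in HoxB. In simulated libraries of these depths the 1 kb test found 10% of windows raised 4-fold. Few windows were raised there, drawn from all windows with at least 10 tags and not from the clusters. The share found therefore does not measure what was missed in the clusters, and the part of depth in the 0 calls was not tested.

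By ChIP tags the signal in HoxA was broad. ChIP tags per 1 kb ranged from 4 to 45 with a median of 15, against a median of 5 over the autosomes, and 123 of 125 windows (98.4%) were above the autosomal mean of 5.47. The share above this mean was 91.7% in HoxC, 83.3% in HoxD and 74.1% in HoxB, and was not computed for the autosomes. At 2 or more times the mean stood 75.2% of HoxA windows, against 9.84% of autosomal windows. Input tags ranged from 0 to 10 with a median of 4, against 2 over the autosomes. The 13 windows with the most ChIP tags, about 1 in 10, held 20.2% of the ChIP tags of the cluster. The like share was 18.6% to 21.4% in the other clusters. An unbroken run of 73 windows above the mean reached to the Hoxa13 edge, from 52152000 to 52224999 on chromosome 6, with 1281 ChIP and 278 input tags, at a ratio of 1.96. Among its windows with many ChIP tags were chr6:52195000-52195999 with 39 and 5 tags and chr6:52171000-52171999 with 32 and 6.

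In HoxD ChIP tags per 1 kb ranged from 1 to 31 with a median of 10, and its longest run above the mean covered 47 windows, from 74499000 to 74545999 on chromosome 2, at a ratio of 2.31. Its window with the most ChIP tags was chr2:74511000-74511999 on the Hoxd13 side, with 31 ChIP and 4 input tags (3.29, 1.16 to 12.8). The next 3 were tied at 24 ChIP tags, chr2:74517000-74517999 with 2 input tags and chr2:74522000-74522999 with 4 on the same side, and the window that starts at 74550000 with 1 near the middle of the cluster. By ChIP tags alone, windows above the autosomal mean made up 57 of the 60 toward Hoxd13 and 43 of the 60 toward Hoxd1. The share of autosomal windows above this mean was not computed. HoxC ranged from 2 to 26 with a median of 10 and was led by chr15:102830000-102830999, with 26 and 5 tags (2.21, 0.834 to 7.36), ahead of chr15:102812000-102812999 with 25 and 1 and chr15:102844000-102844999 with 21 and 3. HoxB ranged from 0 to 21 with a median of 8, and its leading window chr11:96202000-96202999 held 21 and 2 (4.46, 1.09 to 39.2), ahead of chr11:96121000-96121999 with 20 and 6 and chr11:96144000-96144999 with 20 and 1. In HoxB 73 windows above the mean stood in a row from 96111000 to 96183999 on chromosome 11, with a ratio of 1.36, and ended toward Hoxb13 where ChIP tags fell to the autosomal level. These windows were ranked on their own ChIP tags, so their ratios are a description. Every one of the 550 windows held at least 1 tag in the sum of both libraries, so no stretch of a cluster went unread at this scale.

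**Figure D5:**
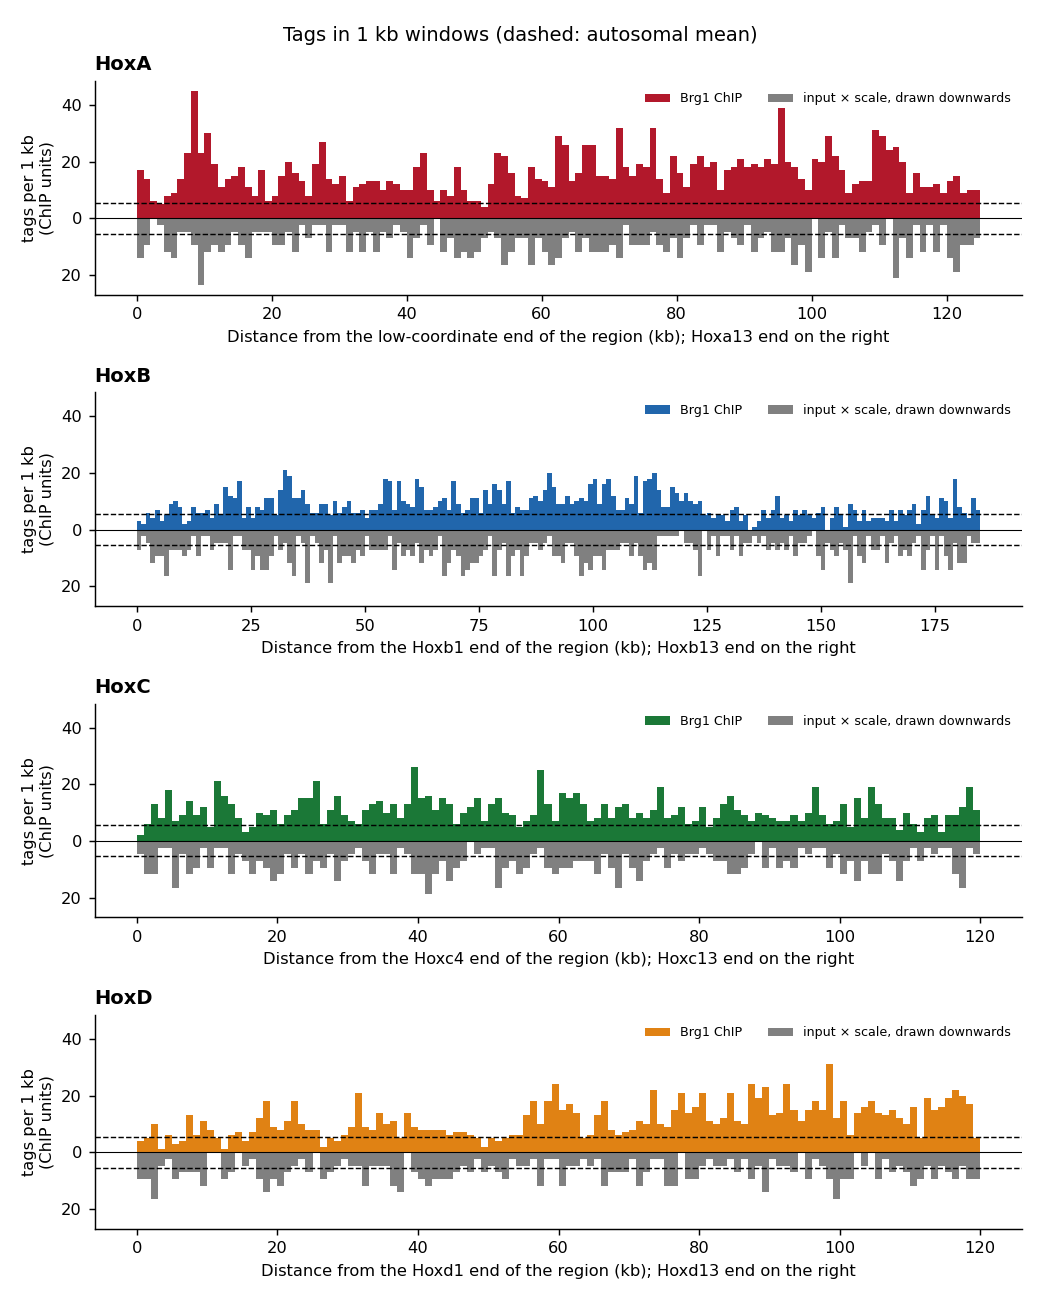
Tags per 1 kb along each cluster, by distance from its low-numbered end (HoxA: low coordinate): ChIP tags upwards, input tags multiplied by 2.36 downwards, with the autosomal mean of 5.47 ChIP tags dashed. By ChIP tags HoxA stands above the dashed line in 123 of 125 windows, HoxD in 57 of 60 toward Hoxd13 and 43 of 60 toward Hoxd1, and HoxB drops to the line toward Hoxb13. The share of autosomal windows above the line was not computed.

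The strands of the tags were not evenly matched in every cluster. In HoxA plus-strand tags made up 51.2% of ChIP tags and 45.4% of input tags, and in HoxC 47.2% and 52.7%, against 49.9% in each library. These strand shares were not tested. The ratio of HoxA was 2.09 on plus-strand tags and 1.66 on minus-strand tags, and that of HoxC 1.25 and 1.56. HoxD stood at 1.81 and 1.71 and HoxB at 1.09 and 1.18. HoxB was the lowest of the 4 on either strand, and HoxA and HoxD changed places between strands. In HoxA 43 of 1947 listed ChIP positions carried 2 tags (2.21%), against 0.822% in the ChIP library, and in the other clusters the share was 1.03% to 1.47%. Denser tags can give more such positions, and ChIP tags in HoxA stood at 2.91 times the autosomal mean per kb. The share was 1.47% in HoxB at 1.57 times the mean, 1.33% in HoxD at 2.09 times and 1.03% in HoxC at 1.94 times. The part of tag density in these shares was not tested. A share at equal density was not computed. Input positions with 2 tags were 0 in all 4 clusters. With 1 tag per strand within 5 bp HoxA was at 1.79 and HoxD at 1.73, so the signal remained when such neighbouring tags were removed.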

How the data were processed

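Both libraries were sequenced after Helicos guidelines, and the submitters' processing notes name Bowtie and mm9, with no version or settings. The authors deposited counts: each file lists a chromosome, strand, position and count of tags, not normalized. No source used here says whether positions start at 0 or 1, and windows may be off by 1 bp. Each tag was moved 75 bp along its strand and counted in windows of 1 kb and 5 kb. ChIP was scaled to input by autosomal totals.

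A minimum of 10 tags (ChIP plus input) was set for windows, which were tested by a two-sided exact binomial test with Benjamini-Hochberg adjustment over all of them. Clusters, their flanks (Fisher's exact test) and their ends were adjusted together with all autosomal tiles of the same length holding at least 10 tags per 10 kb. Named were all called windows, the 3 windows per cluster with the most ChIP tags, and the 5 kb windows with the highest and lowest ratio. 1 gene of HoxA and what was measured at it are not reported here. The members and lists were chosen with earlier results of these data known. Tests were tried on simulated libraries without spread beyond Poisson: of 200 windows each, the 1 kb test recovered 79% raised 8-fold and the 5 kb test 37% raised 3-fold, and of 200 tiles of 125 kb raised 1.5-fold 98% were recovered against the autosomes and 88.5% against flanks, and the test of ends recovered 24%. Alternatives were other scalings, removal of repeated tags, unmoved tags, single strands, other edges, flanks, windows and minimums. Gene starts were not tested, since no annotation of mm9 was used. Python 3.11.15, numpy 2.4.6, scipy 1.17.1, pandas 2.3.3 and matplotlib 3.10.9 were used.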

Additional observations from a re-analysis of the deposited data

How the results depend on the processing

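Of 48 values for the ratio of a cluster, 44 kept direction and call and 4 lost the call, all of HoxB: 1.09 scaled to its own chromosome, 1.09 on plus-strand tags, 1.09 without its 5 windows with most ChIP tags and 1.10 with edges moved out by 10 kb. Against flanks, HoxC lost its call on plus-strand tags (1.32) and with flanks of 500 kb (1.09), and HoxB gained one with edges moved in by 5 kb (1.17). For the ends, HoxD lost its call on plus-strand tags (0.643), and values that had not passed changed direction in HoxA on plus-strand tags (1.01), in HoxC without its 5 windows with most ChIP tags (0.974) and in HoxB with a split in the middle (0.988). Of 66 values for pairs, 62 kept both. Scaling to all chromosomes and the scale from windows with few tags cancel in pairs, flanks and ends, so values under them could not change there. HoxB over HoxC was 0.870 on plus-strand tags, and on minus-strand tags HoxA over HoxC was 1.06, HoxC over HoxD 0.915 and HoxA over HoxD 0.972. Single strands hold fewer tags, but the cause of these changes, on single strands or otherwise, was not tested. Called 1 kb windows of the clusters, otherwise 0, were 14 with background scaling (the scale from windows with few tags), 2 with unmoved tags, 18 with a minimum of 20 tags, which tests fewer windows, 5 with windows of 2 kb and 1 with starts moved by 500 bp. Called 5 kb windows, otherwise 14, were 37 with background scaling, 8 with 1 tag per strand within 5 bp and 5 with the input raised to its 50 kb mean. The share of all tested windows called under each of these settings is not given, so these counts are not read against a background. Over the genome, 1 kb windows called higher went from 3339 to 16753 with background scaling, 18736 with a minimum of 20 tags, 1003 with a minimum of 1, 933 with 1 tag per strand within 5 bp, 21 with windows of 500 bp, 7959 with windows of 2 kb and 94 with the input raised to its 50 kb mean. Those called lower went from 177 to 91, 28, 27, 3, 516 and 37 under the last 6 of these, to 113 with 1 tag per position and strand and to 47 with double the smaller tail. For 5 kb, background scaling moved 10857 higher calls to 27687 and 1959 lower calls to 491, and lower calls were 3691 with windows of 10 kb, 6127 with the raised input and 1290 with double the smaller tail. With background scaling the lowest window of HoxA stood at 1.14. Double the smaller tail was chosen as an alternative after the data were seen. Windows of other sizes or starts gave no value for a named window. No paired analysis was possible because there was a single library of each kind, and no library could be left out.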

Other observations

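Single steps of 10 kb outside the clusters also had high ratios. At 180 to 190 kb outside the Hoxb13 edge, 10 kb held 238 ChIP and 32 input tags, at a ratio of 3.16 (2.18 to 4.72), above every 10 kb step within 60 kb inside the edges of HoxB, and part of this step belongs to the flank of 185 kb given above. At 170 to 180 kb outside the Hoxc4 edge the counts were 158 and 29 (2.31, 1.55 to 3.56), and at 180 to 190 kb they were 132 and 26 (2.15, 1.41 to 3.42). At 140 to 150 kb outside the Hoxd13 edge a single step held 75 and 14 (2.27, 1.27 to 4.36), below 3 of the steps inside HoxD at that edge (2.51 to 2.86). These steps were singled out after their values were seen and have no test. The genes in them are not given, since no annotation of mm9 was used.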
